A study of Mus musculus with 9 samples.

Results

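AP-1 and the immediate early genes were followed in mouse crypt epithelium as 10 genes: Jun, Junb, Jund, Fos, Fosb, Fosl2, Atf3, Egr1, Ier2 and Ier3. They were picked by gene symbol from the 24930 symbols of the deposited table, and all 10 were found there. The 9 libraries were poly(A) RNA of intestinal epithelium taken 8, 9 and 10 days after a mutant β-catenin allele had been induced, with 1 library per day in each of 3 groups. The groups were a control, a set titled Bcathet (heterozygous for the β-catenin allele) and a set titled Cdx2het_Bcathet (heterozygous for Cdx2 as well), called here the Bcathet set and the Cdx2het_Bcathet set. The library names put CDX2HET on the libraries titled Bcathet and leave it off those titled Cdx2het_Bcathet, so which set carried the Cdx2 allele is in conflict in the labels, and the titles are used as names only. The sources used here do not give strain, age, sex, the control's own alleles, or the promoter and agent that drove induction.

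AP-1 is a family of paired transcription factors. A JUN protein binds DNA as a pair with itself, with a FOS protein or with an ATF protein, and JUN, JUNB and JUND differ in how strongly they activate transcription. Most of these genes belong to the immediate early class: growth factor, cytokine and stress signals passed along the MAP kinases switch them on without new protein synthesis, and their RNA is short-lived. In the intestine AP-1 acts beside WNT and β-catenin signalling in crypt growth and wound repair, and the same genes are known to be induced while tissue is cut up and cells are separated.

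Start-site sequences are shown for Junb and Ier3, which passed the test described below, for Jun, which came next, and for Fos and Atf3, which did not pass. They are the 120 bases before the RefSeq transcript start on GRCm38.p6, 5′ to 3′ along the gene. Capitals mark matches to any of the motifs searched.
Junb (chr8:84978749-84978868, minus strand): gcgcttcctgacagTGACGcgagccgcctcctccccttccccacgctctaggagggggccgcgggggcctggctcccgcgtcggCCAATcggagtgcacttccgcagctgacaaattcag
Ier3 (chr17:35821593-35821712, plus strand): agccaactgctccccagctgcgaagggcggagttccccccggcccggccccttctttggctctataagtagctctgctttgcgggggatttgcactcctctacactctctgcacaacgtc
Jun (chr4:95052223-95052342, minus strand): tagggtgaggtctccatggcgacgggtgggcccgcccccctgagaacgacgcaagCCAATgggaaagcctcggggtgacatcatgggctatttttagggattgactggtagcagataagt
Fos (chr12:85473770-85473889, plus strand): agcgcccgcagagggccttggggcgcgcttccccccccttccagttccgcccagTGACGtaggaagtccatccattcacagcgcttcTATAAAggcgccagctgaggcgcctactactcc
Atf3 (chr1:191183334-191183453, minus strand): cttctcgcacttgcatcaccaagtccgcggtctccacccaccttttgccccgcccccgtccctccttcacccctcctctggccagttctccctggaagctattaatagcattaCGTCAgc

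The RefSeq promoter table held 8 of the 10 genes, without Egr1 and Ier2. Both strands of 250 bases before to 50 bases after the start were searched in all 32851 promoters. TGACG, the core of the cyclic AMP response element bound by CREB and ATF proteins, was found for Atf3, Fos, Fosb and Junb (4 of 8) and in 20.8% of all promoters. Its first base lay at −106 from the start in Junb and at −129 and −66 in Fos, where the match at −66 is the one in capitals. CCAAT was found in 4 of 8 (Atf3, Ier3, Jun and Junb) and in 37.4% of all promoters, and TATAAA in 2 of 8 (Fos and Junb, in Junb at the RefSeq start itself) and in 13.6%. The full element TGACGTCA, which contains TGACG, the AP-1 site TGAGTCA, the TCF/LEF letters CTTTGAT and the serum response factor's CArG box were in none of the 8. They occurred in 1.79%, 5.2%, 3.73% and 1.63% of all promoters. Only exact matches were searched, so a near match such as tgacatca in the Jun sequence was not counted. Sites outside the window were not searched. The matches are letters in a window and no measure of binding.

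The 9 epithelial markers, Cdx2 among them, summed to 5388 to 6148 FPKM in control and 5411 to 6395 in the mutants. FPKM is fragments per kilobase of transcript, scaled between libraries. No cut-off for purity was set. The 7 endothelial markers all stayed under 1 FPKM. Of 10 fibroblast markers 5 did so too. In some mutant libraries Dcn reached 2.34 FPKM and Col3a1 1.88, against at most 0.0319 and 0.0362 in control. The fibroblast list did not move together. Pdgfrb lay between 0.260 and 0.326 FPKM for control libraries and between 0.0743 and 0.262 for mutant libraries. Vim spanned 2.40 to 11.4 FPKM over the mutant libraries, on both sides of its control range of 5.70 to 6.61. Ctnnb1, the β-catenin gene, was at 187 to 207 FPKM in control and 211 to 239 in the mutants, with both alleles counted in that value. Cdx2 was at 108 to 139 FPKM in control, 126 to 144 in the Bcathet set and 178 to 196 in the Cdx2het_Bcathet set. The last was above control by log2 0.64 ± 0.10 (limma's adjusted p = 0.0442). Its difference from the Bcathet set did not pass (0.48 ± 0.10, adjusted p = 0.948). The set whose title names Cdx2 thus had the highest Cdx2 RNA, and the reason was not tested. The day-9 library of the Cdx2het_Bcathet set stood apart. Along the leading principal component, which held 43.5% of the variance, its score of −0.173 was beside the controls (−0.206 to −0.196) and away from the other mutants (0.0233 to 0.272). Y-linked genes summed to 41.7 FPKM there and to at most 0.0470 elsewhere, while Xist was at 0.1002 against at least 27.0. That is a male pattern in this library and a female one elsewhere.

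The members spanned more than 2 orders of magnitude in level. In control Jund was highest at 128 ± 9.53 FPKM (SD, n = 3), followed by Ier2 at 57.7 ± 3.62 and Junb at 48.2 ± 5.40, and these 3 did not overlap. Fosl2 (20.7 ± 1.64) lay above Jun (17.1 ± 3.08) without overlap, and Fos (20.0 ± 3.97) overlapped both. In a lower tier Ier3 (4.60 ± 0.387) lay above Egr1 (3.16 ± 0.727) without overlap, Atf3 (3.33 ± 1.67) overlapped both, and Fosb was lowest at 0.810 ± 0.264. In the mutants Junb, at 84.4 ± 7.01 (n = 6), lay above Ier2 at 61.1 ± 2.29 without overlap, so these genes changed places in the order.

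**Figure D1:**
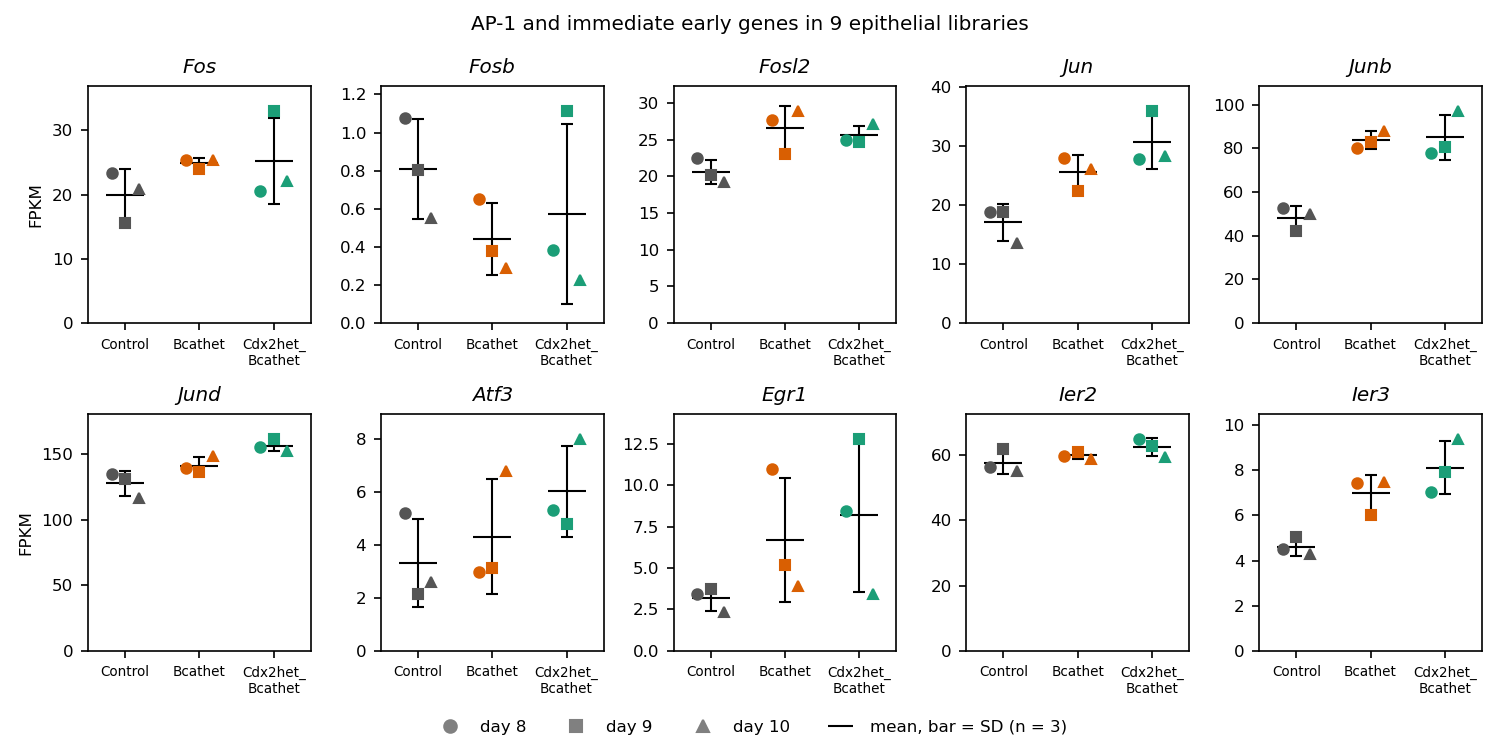
FPKM of each of the 10 genes (vertical axes start at 0) in the 3 groups, with circles, squares and triangles for days 8, 9 and 10 and bars for the mean ± SD of 3 libraries. For Junb the 6 mutant libraries sit at 77.8 to 96.9 and the controls at 42.1 to 52.5, while for Ier2 the groups overlap.

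The mutant sets together were set against control, to see how RNA levels differed once the β-catenin allele was induced. Junb and Ier3 rose, by 0.80 and 0.60 on the log2(FPKM + 1) scale. Of the 10 genes, 9 were at 1 FPKM or more in all 9 libraries and were tested by limma among 12097 genes, and Fosb, at that level in 2 libraries only, was not tested. The 2 that rose are 2 of 9, where 0.513% of all genes tested were called higher and 1.16% in either direction. All 9 had a positive log2 fold change, with a median of 0.52 against a median of −0.00 over all genes tested, of which 49.7% were positive. For 5 genes (Junb, Jun, Jund, Fosl2 and Ier3) all 6 mutant libraries lay above all 3 controls, a pattern shown by 5.19% of all genes tested, and no member showed the opposite. The members were chosen with earlier results of these data known, so these shares, here and below, only describe the list. In all, 140 genes passed, 62 higher and 78 lower, or 133 higher and 36 lower with the libraries rescaled to equal totals.

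Junb encodes the JUN protein that is often a weaker activator than JUN itself and can restrain it. It was at 52.5, 42.1 and 49.9 FPKM at days 8, 9 and 10 in control, at 80.3, 82.9 and 88.1 in the Bcathet set, and at 77.8, 80.5 and 96.9 in the Cdx2het_Bcathet set. The lowest mutant library stood well clear of the highest control, and each mutant library was 1.48 to 1.97 times the control of its day. The log2 fold change was 0.80 ± 0.09 (SE; limma's adjusted p = 0.0133), a ratio of means of 1.75. These values rest on about 1451 to 2942 fragments per library, so counting error is small beside the spread. Leaving out a library kept the call in 7 of 9 fits and lost it without the day-9 control (adjusted p = 0.0617) or the day-10 control (adjusted p = 0.0634), and the log2 fold change stayed between 0.71 and 0.86. In bulk RNA, a change in the share of cells that express a gene and a change in RNA per cell cannot be told apart.

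Junb shares 176 bases of exon with Prdx2, a peroxiredoxin gene on the opposite strand, in GENCODE M21, and the sources used here do not say whether the authors' counting used strand. Prdx2 was at 155 to 165 FPKM in control and 157 to 169 in the mutants (log2 fold change 0.04 ± 0.05, limma's adjusted p = 0.705). Jun and Jund likewise overlap opposite-strand gene models, Junos over 232 bases and Gm11175 over 543 bases, which were not analysed here, so those bases are uncertain for both genes.

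Jun, the founding member and the best-known substrate of the JNK kinases, was at 18.9, 18.8 and 13.5 FPKM in control, at 28.0, 22.4 and 26.1 in the Bcathet set and at 27.7, 35.9 and 28.3 in the Cdx2het_Bcathet set. Its 6 mutant values were all above control, with the highest in the day-9 library that stood apart. The log2 fold change of 0.69 ± 0.13 missed the threshold (limma's adjusted p = 0.0529), and passed without that library (0.63, adjusted p = 0.0267). It also passed where only genes of at least 5 FPKM were tested (adjusted p = 0.0477) and with library weights (0.0166). It did not pass with the day as a block (0.0728), equal totals (0.0769), no filter (0.0796) or a pseudocount of 0.1 (0.0510). Without the day-9 or the day-10 control the adjusted p was 0.156 and 0.175.

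Jund, a JUN protein usually present without stimulation, was the most abundant member and differed least within the JUN family. It was at 135, 131 and 117 FPKM in control, 139, 136 and 148 in the Bcathet set and 155, 161 and 152 in the Cdx2het_Bcathet set. The lowest mutant value was just above the highest control, and the log2 fold change of 0.22 ± 0.07 did not pass (limma's adjusted p = 0.121).

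Since FPKM is scaled to length, the 3 JUN genes can be summed. Their sum was 193 ± 13.0 FPKM in control, 250 ± 10.8 in the Bcathet set and 272 ± 9.61 in the Cdx2het_Bcathet set. Junb made up 21.9% to 27.7% of it in control and 29.0% to 34.9% in the mutants, and Jund 64.8% to 68.3% and 54.9% to 59.5%. The share of Jun was 7.50% to 9.78% and 9.29% to 12.9%, with overlap. These shares are descriptive and were not tested.

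**Figure D2:**
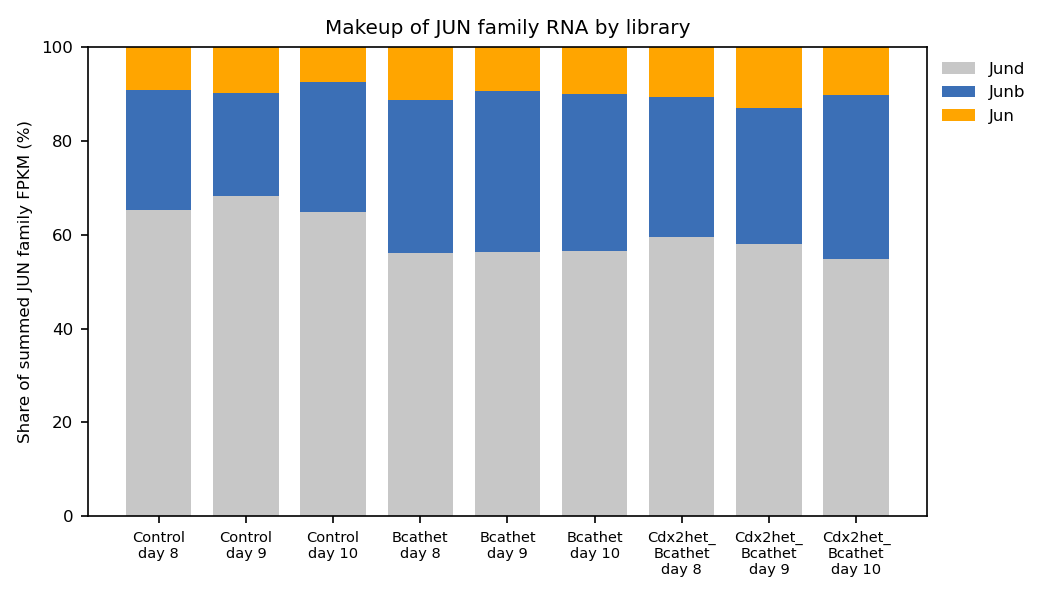
Share (%) of the summed JUN family FPKM taken by Jund, Junb and Jun in each of the 9 libraries, 1 stacked bar per library. The Junb share is 21.9% to 27.7% in the 3 control libraries and 29.0% to 34.9% in the 6 mutant libraries.

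Among the FOS genes, none passed. Fos encodes the classic short-lived partner of JUN. It was at 23.4, 15.6 and 20.9 FPKM in control, 25.4, 24.0 and 25.4 in the Bcathet set and 20.6, 33.0 and 22.2 in the Cdx2het_Bcathet set. The Bcathet set lay above control, while 2 of the 3 Cdx2het_Bcathet libraries lay inside the control range and the day-9 library was the highest of all. The log2 fold change was 0.32 ± 0.16 (limma's adjusted p = 0.307) and fell to 0.22 without that library, and to 0.16 without the day-9 control.

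Fosl2, which encodes the slower-acting protein FRA2, was at 22.5, 20.2 and 19.3 FPKM in control, 27.7, 23.1 and 28.9 in the Bcathet set and 25.0, 24.7 and 27.1 in the Cdx2het_Bcathet set. All 6 mutant libraries were above control by a small margin, and the log2 fold change of 0.32 ± 0.08 did not pass (limma's adjusted p = 0.0910). Fosb, a stimulus-bound FOS gene, was at 1.08, 0.803 and 0.549 FPKM in control, 0.653, 0.381 and 0.288 in the Bcathet set and 0.383, 1.11 and 0.224 in the Cdx2het_Bcathet set. It was below the control of its day in 5 of 6 mutant libraries, the exception again being the day-9 library, and its lowest value stood for about 14 fragments. The summed FPKM of the 3 FOS genes came to 41.5 ± 5.22 in control (36.6 to 47.0) against 51.7 ± 4.88 for the mutants (46.0 to 58.8), with overlap. Fos made up 42.7% to 51.3% of it in control and 44.7% to 56.1% in the mutants, and these ranges overlapped, unlike those of the Junb share among the JUN genes.

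Atf3, a stress-induced ATF protein that pairs with JUN proteins, varied as much within groups as between them. It was at 5.23, 2.16 and 2.59 FPKM in control, 2.97, 3.15 and 6.82 in the Bcathet set and 5.34, 4.79 and 8.01 in the Cdx2het_Bcathet set. Within each mutant set day 10 was highest, at 2.63 and 3.09 times the day-10 control, whereas the day-8 control was the highest of its own group. The log2 fold change of 0.52 ± 0.30 did not pass (limma's adjusted p = 0.362).

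Egr1, a zinc finger factor that MAP kinase and serum response factor signalling turns on, had the largest log2 fold change of the 9, 0.91 ± 0.39, and did not pass (limma's adjusted p = 0.237). It was at 3.41, 3.72 and 2.34 FPKM in control, 11.0, 5.20 and 3.90 in the Bcathet set and 8.44, 12.8 and 3.45 in the Cdx2het_Bcathet set. All 6 mutant libraries exceeded the control of their day, by 1.397 to 3.43 times, but the day-10 mutants stayed close to the control range, and 1 of them lay inside it. Fibroblast markers varied among the same mutant libraries. The summed FPKM of 10 fibroblast markers was 12.2, 12.5 and 3.21 in the Bcathet set and 6.60, 19.2 and 4.54 in the Cdx2het_Bcathet set, against 6.17 to 7.18 in control. Vim was the largest part of each sum. It was at 6.59, 5.64 and 2.40 FPKM in the Bcathet set and 4.74, 11.4 and 4.08 in the Cdx2het_Bcathet set, against 5.70 to 6.61 in control. Col3a1, a fibrillar collagen gene, was at 0.842, 1.58 and 0.0825 FPKM in the Bcathet set and 0.214, 1.88 and 0.103 in the Cdx2het_Bcathet set. Macrophage and neutrophil markers varied over these libraries too. They summed to 15.0, 21.0 and 9.23 in the Bcathet set and 12.2, 15.4 and 9.46 in the Cdx2het_Bcathet set, against 8.67 to 9.64 in control. The part of other cell types in the Egr1 values was not tested.

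The IER genes encode small immediate early proteins with no shared fold. Ier3, whose product is tied to survival under stress and NF-κB signalling, was at 4.49, 5.03 and 4.28 FPKM in control, 7.42, 6.03 and 7.48 in the Bcathet set and 7.05, 7.92 and 9.38 in the Cdx2het_Bcathet set. All 6 mutant libraries were above all controls, by 1.20 to 2.19 times the control of their day. The log2 fold change was 0.60 ± 0.10 (limma's adjusted p = 0.0415), on about 90 to 178 fragments per library. The adjusted p was 0.0666 with the day as a block and 0.0598 with no filter on low values. Of 9 fits that left out a library the call held in 2, without day 9 of either mutant set (adjusted p = 0.0432 for the Bcathet library and 0.0234 for the Cdx2het_Bcathet library). It was lost without control day 8, 9 or 10 (adjusted p = 0.101, 0.118 and 0.175), Bcathet day 8 or 10 (0.0683 and 0.0778) or Cdx2het_Bcathet day 8 or 10 (0.0556 and 0.0657).

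Ier2, a nuclear protein gene often read as a marker of tissue handling, was the flattest member. It was at 56.3, 61.8 and 54.9 FPKM in control, 59.8, 60.9 and 58.9 in the Bcathet set and 64.9, 62.7 and 59.4 in the Cdx2het_Bcathet set. The groups overlapped, and the log2 fold change was 0.08 ± 0.06 (95% interval −0.05 to 0.22, limma's adjusted p = 0.453).

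**Figure D3:**
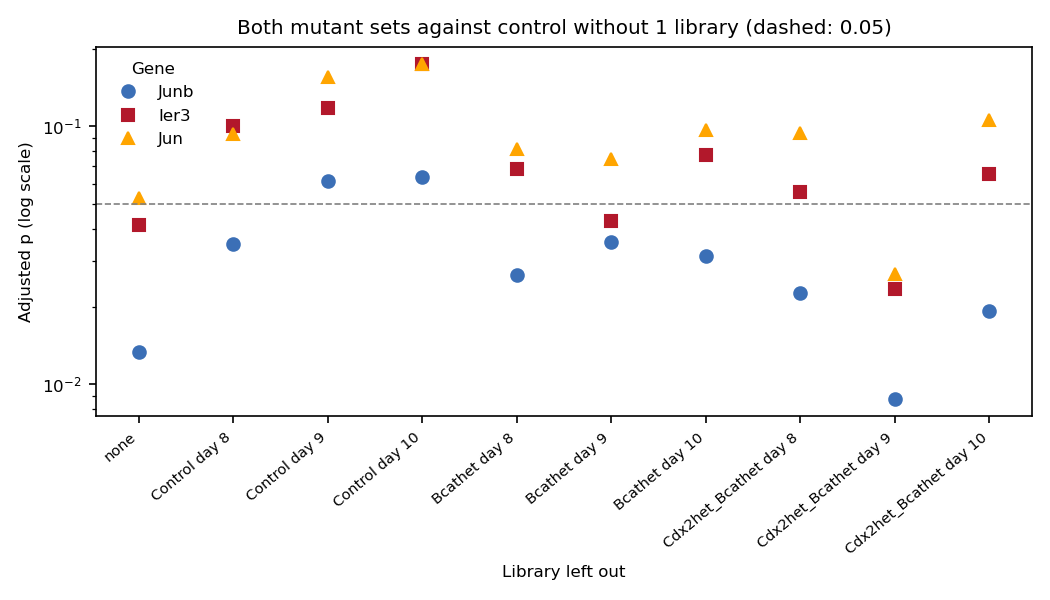
Adjusted p (log axis) for Junb, Ier3 and Jun in both mutant sets against control, with all libraries and after leaving out each library; the dashed line is the threshold of 0.05. Junb stays under it in 7 of 9 fits, Ier3 in 2 and Jun in 1.

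Each mutant set was also set against the same 3 controls, which the comparisons share. In the Bcathet set Junb rose by 0.79 ± 0.11 (limma's adjusted p = 0.0386), 1 of 9 members where 0.124% of all genes were called higher, and the adjusted p was 0.0576 with the day as a block and 0.0618 with no filter on low values. Among the fits that left out a library it passed in 2 of 9, without the day-9 or the day-10 Cdx2het_Bcathet library (adjusted p = 0.0273 and 0.0416). Ier3 was 0.51 ± 0.12 higher there (adjusted p = 0.119) and Jun 0.56 ± 0.15 (adjusted p = 0.157). In this comparison 7 of the 9 tested members lay above control without overlap, the 5 named above with Fos and Egr1, against 12% of all genes tested.

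In the Cdx2het_Bcathet set Junb rose by 0.81 ± 0.11 (limma's adjusted p = 0.0214) and Ier3 by 0.70 ± 0.12 (adjusted p = 0.0457), 2 of 9 where 0.389% of all genes were called higher. Ier3 did not pass with the day as a block (adjusted p = 0.0809), with no filter (0.0727), with equal totals (0.0592) or with the Bcathet set left out of the fit (0.0938), and Junb did not in the last of these (0.0814). Leaving out a library kept Junb in 4 of 9 fits and Ier3 in 1, that without the set's own day-9 library (adjusted p = 0.0183 for Junb and 0.0352 for Ier3). Junb was kept also without each Bcathet library. Jun was 0.81 ± 0.15 higher (adjusted p = 0.0639) and passed without the day-9 library (adjusted p = 0.0482). Without overlap, 5 of the 9 tested members lay above control, against 9.81% of all genes tested.

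**Figure D4:**
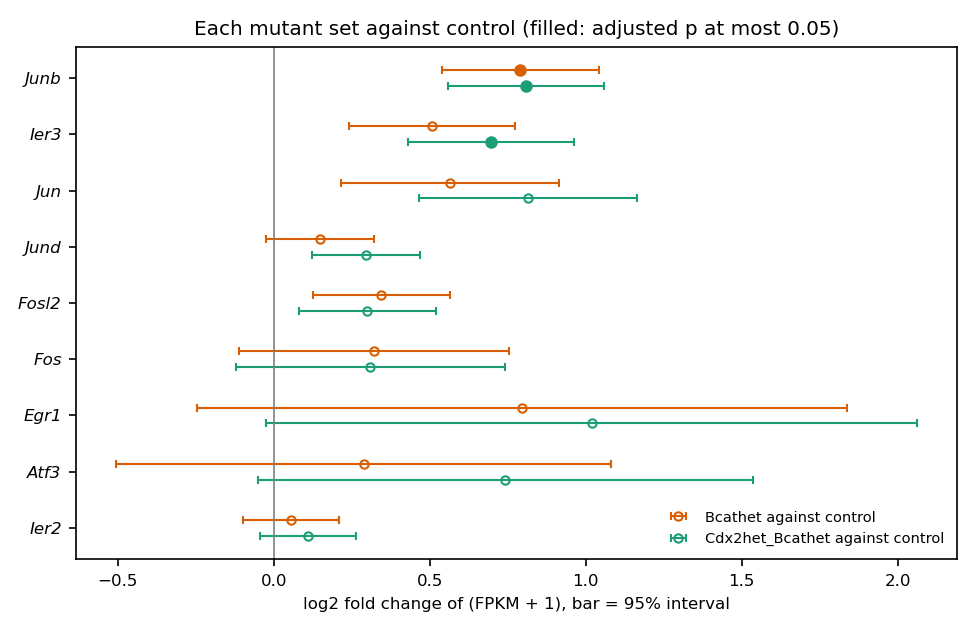
Log2 fold change of FPKM + 1 for the 9 tested genes in each mutant set against control, with 95% intervals; filled points passed an adjusted p of 0.05. Junb is filled in both sets (0.79 and 0.81) and Ier3 in the Cdx2het_Bcathet set only (0.70, against 0.51 in the Bcathet set).

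The difference between the sets was tested directly. No member passed, and none had an unadjusted p under 0.05. Over all genes 0 of 12097 passed in limma (0%), and 376 had an unadjusted p under 0.05. For Junb the Cdx2het_Bcathet set minus the Bcathet set was 0.02 (95% interval −0.23 to 0.27), for Ier3 0.19 (−0.08 to 0.46) and for Jun 0.25 (−0.10 to 0.60). The intervals for Egr1 (−0.82 to 1.27) and Atf3 (−0.34 to 1.25) were wide and leave room for a difference of either sign. Jund was the member with no overlap, at 136 to 148 FPKM in the Bcathet set and 152 to 161 in the Cdx2het_Bcathet set (log2 0.15 ± 0.08, limma's adjusted p = 1.00), where 3.18% of all genes tested were higher without overlap.

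Genes around AP-1 were read from lists chosen with earlier results of these data known. For the counts that follow, 21.0% of all genes tested had an unadjusted p under 0.05 with both mutant sets against control, and 49.7% had a positive log2 fold change. Of 9 tested partners among 13 (ATF, BATF and MAF genes) none passed in limma and 4 had an unadjusted p under 0.05, with a median log2 fold change of 0.11. Mafk, a small MAF protein gene, had the smallest p (0.24 ± 0.08, adjusted p = 0.134). Fosl1, the FRA1 gene, was at most 0.256 FPKM. Of 10 tested immediate early transcription factors among 16, none passed and 2 had an unadjusted p under 0.05 (median 0.11), a share near that of all genes. Ier5l had the smallest p (0.27 ± 0.10, limma's adjusted p = 0.190). Egr2, Egr3, Egr4 and Nr4a3 stayed under 1 FPKM in every library. Thus the other EGR genes were near the floor in libraries where Egr1 was readable.

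The 23 feedback genes include MAP kinase phosphatases, RNA decay factors and inhibitors of cytokine, growth factor and NF-κB signalling. Of 20 tested, none passed and 9 had an unadjusted p under 0.05 (median 0.17), against 21.0% of all genes tested. Ppp1r15a, the stress-induced GADD34 phosphatase subunit, had the smallest p. It was at 3.29 to 3.62 FPKM in control and 4.50 to 6.06 in the mutants, without overlap (0.47 ± 0.10, limma's adjusted p = 0.0646). Dusp1, a MAP kinase phosphatase, was chosen after its values were seen. It lay at 1.83 to 2.14 and 2.49 to 3.50 (0.45 ± 0.10, adjusted p = 0.0651). Among 20 tested MAP kinases and upstream factors of 22 none passed and 5 had an unadjusted p under 0.05, again near the share of all genes, with a median of 0.04. Elk4, a partner of serum response factor, had the smallest p (−0.21 ± 0.07, adjusted p = 0.158).

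Of 12 tested textbook AP-1 targets among 20, 3 rose and none fell (median 0.30), where 0.513% of all genes were called higher. Plaur, the urokinase receptor, was at 1.11, 0.781 and 0.537 FPKM in control and 1.92 to 2.54 in the mutants (0.84 ± 0.11, limma's adjusted p = 0.0179), and it reached the 1 FPKM filter through the mutant libraries. Vegfa, an endothelial growth factor, rose from 12.5 ± 0.866 to 24.2 ± 4.73 FPKM (0.88 ± 0.15, adjusted p = 0.0417), and Areg, an EGF receptor ligand, from 2.01 ± 0.828 to 7.72 ± 2.17 (1.53 ± 0.27, adjusted p = 0.0487). None of the 3 overlapped between groups, where 5.19% of all genes tested were higher without overlap. The 3 were named because they passed, so this adds no support. Timp1 and Hmox1, which did not pass, also reached the filter through the mutant libraries. Their controls were at most 0.528 and 1.22 FPKM. The count of targets and the list median thus lean upward. The matrix protease genes Mmp3, Mmp10 and Mmp13 stayed under 0.1 FPKM in every library, and Mmp7, a Paneth cell protease, was at 297 to 473 FPKM in control and 204 to 696 in the mutants. The count of targets that passed was 5 without the day-9 Cdx2het_Bcathet library and 2 without Bcathet day 8 or day 9. It was 1 without control day 8, Bcathet day 10 or Cdx2het_Bcathet day 10, and 0 without control day 9, control day 10 or Cdx2het_Bcathet day 8.

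**Figure D5:**
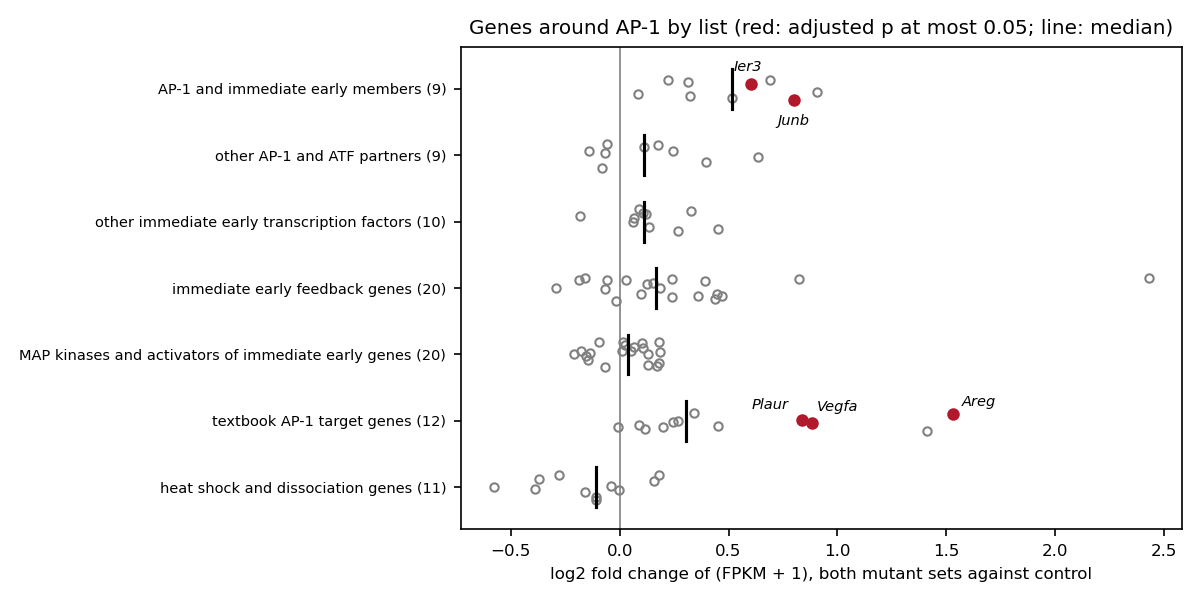
Log2 fold change of FPKM + 1 in both mutant sets against control for the tested genes of each list (number tested in brackets), with red points for an adjusted p at most 0.05 and a black line at the list median. The median is 0.52 for the AP-1 and immediate early genes, 0.30 for textbook targets and −0.11 for heat shock genes.

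Handling of tissue also induces heat shock genes, which were read from a list of their own. Of 11 tested heat shock genes among 13, none passed in limma, 3 had an unadjusted p under 0.05 (21.0% of all genes) and 2 were positive (49.7% of all genes), with a median of −0.11. Their summed level was 2679 to 2932 FPKM in control and 2481 to 2837 in the mutants. Hsph1, an HSP110 chaperone gene, had the smallest p, at 20.1 to 25.7 FPKM in control and 15.1 to 17.3 in the mutants (−0.39 ± 0.09, adjusted p = 0.0721). Hspa1b, an inducible HSP70 gene, was at 5.85 FPKM in the day-9 control and at 0.846 to 2.11 elsewhere. A part of tissue handling in the values of Junb and Ier3 was not tested.

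Other cell types were read beside these results. The 10 T cell markers in the table summed to 83.2 to 131 FPKM in control and to 79.1 to 107 in the day-8 and day-9 mutants, but to 29.7 and 28.0 in the day-10 mutants of the Bcathet and Cdx2het_Bcathet sets, where Junb was highest. Macrophage and neutrophil markers (13 genes) summed to 8.67 to 9.64 in control and 9.23 to 21.0 in the mutants, and 6 of them stayed under 1 FPKM in every library. The 6 B and plasma cell markers summed to 2.75 to 5.33 in control and 3.18 to 4.77 in the mutants, and the 6 smooth muscle markers to 3.60 to 4.65 and 3.68 to 6.42. Their part in the levels of the members was not tested.

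The genes whose centred log2 profile over the 9 libraries was nearest to a member's were named by rule among 8841 genes. Nearest to Junb were Slc1a5, a glutamine transporter, with a root-mean-square difference of 0.12 on the log2 scale, Oit1 at 0.14 and Cfb, complement factor B, at 0.14, where Junb's own spread was 0.39. Control and mutant FPKM averaged 41.7 ± 4.64 and 71.1 ± 5.65 for Slc1a5, 80.2 ± 13.6 and 137 ± 20.0 for Oit1, and 34.7 ± 7.21 and 53.3 ± 4.56 for Cfb. Nearest to Ier3 were Krt7, a keratin, at 0.10, Nt5c2, a nucleotidase, at 0.11 and Fgfr2, a growth factor receptor, at 0.12, against Ier3's own spread of 0.32. Their log2 fold changes were 0.49, 0.48 and 0.68. These genes were chosen on the same libraries for a profile that holds the difference between groups, so their differences are a description with no test. Fos had Rnd2, Slc39a14 and Abtb1 at 0.12, 0.12 and 0.13 (own spread 0.26), and Atf3 had Ifit1, Smpdl3b and Upp1 at 0.15, 0.16 and 0.16 (own spread 0.50).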

How the data were processed

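The values the authors deposited were taken as FPKM. Neither header nor labels name a unit, and the reading rests on low values. For 1800 genes with a single transcript of at least 2000 bases these fall in steps, and 75.2% to 82.9% per library lay within 0.15 of a whole step. With a step as 1 fragment, 1 FPKM stands for 16.8 to 19.0 fragments for each kilobase, and fragments behind a gene were estimated with its longest GENCODE M21 transcript. Summed FPKM was 624923 to 755802 per library. The median ratio to each gene's geometric mean was 1.00276 in every library. The values were thus scaled to a common median ratio, which the alternative of equal totals replaces. Per the submitters' processing notes kallisto 0.46.1, DESeq2 1.40.1 and the build mm9 were used, with no role stated. The sources used here do not give annotation, filters or strand setting.

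Groups came from titles. Replicates 1, 2 and 3 are days 8, 9 and 10, so the day pairs them by label. Deviations from group means correlated at −0.24 to 0.62 between libraries of the same day and at −0.55 to 0.29 between other days. Between a control and a mutant library of the same day the range was −0.24 to 0.070. The highest values, 0.40 and 0.62, were between the mutant sets at days 9 and 10. No label says that libraries came from separate animals, and the spread behind each p-value may be in part technical. The libraries of a group are from days 8, 9 and 10, so this spread, like each SD, also mixes in any change with time since induction. By its Y-linked and Xist values the day-9 Cdx2het_Bcathet library is male and the rest female, so that library came from another animal.

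limma 3.58.1 in R 4.3.3 was fitted to log2(FPKM + 1) of 12097 genes that reached 1 FPKM in 3 or more libraries, as 3 group means over all 9 libraries, with trend and robust options and Benjamini-Hochberg adjustment over all genes (threshold 0.05), and was tested on simulated data. This scale understates changes of low genes. Overlapping transcripts were sought with blastn 2.17.0. The members and lists were chosen with earlier results of these data known. Beside the members, Ctnnb1 and Cdx2, the text names up to 3 passing genes of each list around AP-1, or the gene of smallest p. It also names the 3 nearest profiles for Junb, Ier3, Fos and Atf3 among genes averaging at least 5 FPKM. Any further gene was picked with its values in view. Alternatives were another pseudocount (0.1), no filter, a 5 FPKM filter, equal totals, library weights, a block for the day, a fit on the compared groups, and leaving out libraries in turn.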

Additional observations from a re-analysis of the deposited data

How the results depend on the processing

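Genes and members that passed in limma moved with the setting, and the cause was not tested. For both mutant sets against control, 140 genes and 2 members passed. These counts were 80 and 1 with no filter on low values, 1438 and 5 with library weights (Jun, Fosl2 and Jund joined), and 17 to 995 and 0 to 3 leaving out a library. For the Bcathet set 26 genes and 1 member passed, with 44 genes under library weights, and 3 to 126 genes and 0 to 1 members leaving out a library. Junb lost its call there without the filter. For the Cdx2het_Bcathet set 76 genes and 2 members passed. That became 2035 and 5 with library weights, 48 and 0 when only the compared groups were fitted, and 18 to 483 and 0 to 3 leaving out a library. Ier3 lost its call there under equal totals and without the filter. Among the fits leaving out a library, the highest gene count of each of these 3 comparisons came without the day-9 Cdx2het_Bcathet library. Between the mutant sets, 0 genes became 2 with a pseudocount of 0.1, 3 with library weights and 0 to 2 leaving out a library. Textbook AP-1 targets, an alternative chosen after seeing the data, ranged from 0 to 5 leaving out a library.

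With the day as a replicate block, the pairing given by the labels, Junb still passed for both sets (limma's adjusted p = 0.0257) and Ier3 did not (0.0666). For the Bcathet set, where 16 genes passed, Junb did not (0.0576). For the Cdx2het_Bcathet set Ier3 lost its call and Junb kept it. No other member's call changed.

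Of the log2 values of members under alternatives, 508 kept direction and side of the threshold, 38 lost and 9 gained a call, and 12 reversed, none of them called. Leaving out a library, Atf3 in the Bcathet set ran from −0.028 to 0.58. The Cdx2het_Bcathet set minus the Bcathet set ran from −0.21 to 0.11 for Fos, −0.14 to 0.016 for Fosl2, −0.079 to 0.077 for Junb and −0.14 to 0.68 for Egr1. Junb was also −0.030 with equal totals and −0.031 with library weights. Fosb, at about 14 fragments in its lowest library, is limited by depth.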

Other observations

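Socs3 and, in the next paragraph, the comparison of the mutant sets for Ier5l were picked with their values in view. Socs3, a feedback inhibitor of cytokine signalling, was at 8.15 to 14.3 FPKM in control, 78.7, 66.1 and 125 at days 8, 9 and 10 of the Bcathet set, and 74.7, 14.5 and 107 in the Cdx2het_Bcathet set. The day-9 library of the latter set was thus at the control level, and the difference of both sets from control did not pass (log2 2.43 ± 0.57, limma's adjusted p = 0.0815). In that same library Jun, Fos, Fosb and Egr1 were at their highest of all 9 libraries.

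Ier5l, an immediate early gene of the IER5 family, was at 2.81 to 3.23 FPKM in control and 2.65 to 3.29 in the Bcathet set, but at 4.05 to 5.64 in the Cdx2het_Bcathet set. The sets did not overlap, and their difference (log2 0.58 ± 0.12) did not pass over all genes (limma's adjusted p = 0.948, unadjusted p = 0.00108).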
